A study of Oryza sativa with 4 samples.

Results

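Plants meet fungi and bacteria with receptors that recognise the intruder and with proteins that attack it. The NBS-LRR receptors sit inside the cell and start the resistance response, whereas chitinases and beta-1,3-glucanases cut the chitin and glucan of fungal walls, and thaumatin-like and other pathogenesis-related (PR) proteins accumulate in infected tissue. Germins and germin-like proteins are wall proteins, some of which release hydrogen peroxide, and lectins bind sugars. Many of these genes also serve growth and storage, and the genes of a family often lie in clusters of near copies.

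Among the 21495 rice probes measured, 197 are described as chitinase, beta-1,3-glucanase, thaumatin, PR protein, germin, lectin or NBS-LRR protein. They were chosen by these words in the array's description, and 10 further matches that also name a kinase, pectin, a peroxidase or AP2 were left out. The 197 comprise 83 NBS-LRR probes, 42 chitinases, 26 glucanases, 17 germin-like proteins, 11 thaumatin-like proteins, 9 other PR proteins and 9 lectins. No probe was described as a jacalin or as wound-induced. Each probe stands for its own rice full-length cDNA, but a description is only the best match found when the array was made. In 77 cases that match is a gene of another species, and the 197 probes share 77 descriptions, of which the commonest, the NBS-LRR-like protein YR48, is carried by 34 probes. Members are therefore given by cDNA, since a shared description does not mean a shared gene, and cross-hybridization between near copies was not tested.

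The leaves were from seedlings of the indica rice variety Panvel (Panvel1 in the study's text), 8 to 10 days old and raised at 25 °C. Etiolated seedlings were grown and treated in the dark, and light seedlings were grown with a photoperiod of 12 h. Excised leaves of each kind were floated for 2 h on 120 mM potassium nitrate or on water, with each treatment made in 2 biological replicates; the study's methods give a shorter treatment and a warmer room than the labels do. Each of the 4 arrays carried nitrate-treated and water-treated RNA of 1 condition in 2 colours, with nitrate in Cy5 in replicate 1 and in Cy3 in replicate 2. The leaves were excised and whole, so that fewer cells of a type and less RNA per cell cannot be told apart.

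The labels do not say which channel holds nitrate, and channel 2 was read as nitrate. With this reading, the log2 ratios correlated with the study's own nitrate fold changes at 0.988 over 16 probes in etiolated leaves and at 0.998 over 23 probes in light leaves, so the directions are not independent of the study. Of the probes, 73.8% to 77.3% were well above background in the nitrate channel and 74% to 76.2% in the water channel. Of the 197 defence probes, 105 (53.3%) were well above background in all 8 channels, against 68.5% of all probes, and 57 were in none. The glucanases were the most often detected, with 22 of 26 in all channels, and the NBS-LRR probes the least, with 32 of 83. Across probes, the ratios of the 2 replicates correlated at 0.462 in etiolated and at 0.449 in light leaves. The ratios of etiolated and light arrays correlated at 0.317 where nitrate was in Cy3 and at -0.00792 where it was in Cy5.

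In the text a level is the log2 signal of a channel, and a nitrate response is log2(nitrate/water) on an array. A probe was called where limma gave an absolute log2 value of at least 1 with an unadjusted p of at most 0.05, and the Benjamini-Hochberg adjusted p over all probes stands beside it. Each SE is limma's, from 2 arrays per condition. Where 1 array is left out, its condition has 1 array, which is assumed to vary like the other condition. Brightness depends on the probe, so levels of different probes are not compared. A probe is said to be below background in a channel where it was well above background there on no array of the condition.

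Nitrate changed few of these genes, and more of the called ones fell than rose in etiolated leaves. In etiolated leaves 6 of the 197 rose and 12 fell, which is 3.05% and 6.09% of them, against 1.81% and 1.72% of all probes. In light leaves 5 rose and 5 fell, 2.54% each way, against 2.28% and 1.46% of all probes. After adjustment 1 defence probe, a chitinase that fell, passed in etiolated leaves, where 0.223% of all probes did, and none passed in light, where 0.312% of all probes did. These adjusted counts moved with the probes kept and with the processing. When probes that lacked a channel well above background on any of the arrays were left out before the fit, 115 defence probes remained. Of them 11 passed after adjustment in etiolated leaves, 3 up and 8 down, against 3.04% of all probes kept, and 6 in light leaves, 2 up and 4 down, against 3.37%. With the deposited normalized ratios 12 and 6 passed, with median centring 7 and 4, and with the normexp background correction 7 and 2. For these last settings the share of all probes is not given, so the counts are not read as a trait of the defence probes. These joint settings were chosen after seeing the data. At the median the 197 probes stood at -0.02 in etiolated and -0.01 in light leaves, as did all probes at -0.01 in both. Within 0.5 log2 units of no change lay 136 of them in etiolated and 147 in light leaves. Of the 18 etiolated calls, 4 were on probes below background in both channels, as were 2 of the 10 light calls. Without etiolated replicate 2 the etiolated count was 32, and without light replicate 1 the light count was 18. With the normexp background correction, 7 etiolated calls were left, which were the chitinases AK064281, AK058878, AK101155, RCB4 and AK059767, the glucanase AK110902 and the germin-like RGLP1, and 2 light calls, AK064281 and AK058878.

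**Figure D1:**
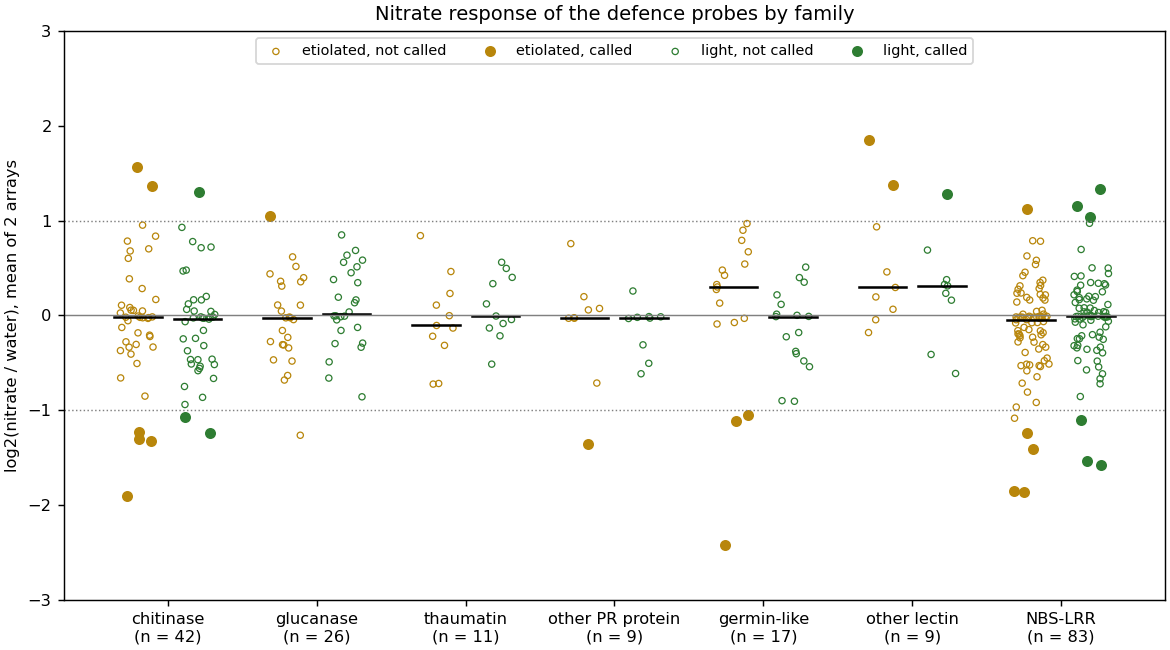
Nitrate response of the 197 defence probes, as the mean log2(nitrate/water) of 2 arrays, by family. Etiolated leaves stand left of light leaves, filled points were called, black bars are medians and dotted lines mark a log2 value of 1 either way. Most points lie near 0, and the called ones fall on both sides in chitinases and NBS-LRR probes.

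Of the 24 probes called in either condition, 4 were called in both. The same count was not made over all probes, so it is not read as a trait of the defence probes. The chitinase AK064281 fell in both, and the NBS-LRR probe AK102733 rose in both, as did the lectin AK110961, which was below background in both channels. The remaining one, the chitinase AK058878, fell in etiolated and rose in light leaves. The contrast of the nitrate response, etiolated minus light, called 13 probes higher and 10 lower in etiolated leaves, 6.6% and 5.08% of the 197, against 2.98% and 3.54% of all probes. By limma over all probes none passed after adjustment, and neither did any other probe (0% of all). With dim probes left out 8 defence probes passed, against 1.69% of all probes kept, the lowest adjusted p being 0.0038 for AK058878, which also passed with median centring (0.0335), the deposited ratios (0.0178) and normexp (0.00524). Without etiolated replicate 2 the count of 23 became 37. As the contrast is made of the same 4 arrays, it is no further evidence of each response.

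Water-treated leaves of the 2 conditions differed far more. In etiolated leaves 18 defence probes were higher and 28 lower than in light leaves, 9.14% and 14.2% of them, against 14.5% and 14.5% of all probes. The split turned to 15 higher and 9 lower with the normexp background correction. Of the 105 defence probes well above background in all channels, 15 were higher and 15 lower. After adjustment 43 of the 197 passed, 17 higher and 26 lower, while 28.1% of all probes passed. The median defence probe stood at 0.01, against 0.02 for all probes. Among the 32 green leaf marker probes, which code for chlorophyll-binding and photosystem proteins and the small subunit of Rubisco, 23 were lower and 2 higher in water-treated etiolated leaves, with a median of -2.29. The log2 of their summed signal was 17.77 and 17.49 in water-treated etiolated leaves, against 20.44 and 19.63 in water-treated light leaves, and 24 of them were well above background on both etiolated arrays, against 27 on both light arrays. The part of this shift in the defence results was not tested. Of the 11 probes for seed storage proteins, 2 were lower and none was higher in etiolated leaves, and 3 were well above background there, against 5 in light leaves.

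The 1 nitrate response that passed after adjustment over all probes was a chitinase's. Of 42 chitinases, 2 rose and 4 fell in etiolated leaves, 4.76% and 9.52%, against 1.81% and 1.72% of all probes. In light leaves 1 rose and 2 fell, 2.38% and 4.76%, against 2.28% and 1.46% of all probes. AK064281, described as a rice chitinase, had a nitrate response of -1.86 and -1.95 on the etiolated arrays, against -1.32 and -1.17 on the light arrays. All 4 arrays thus lay below -1. It fell by 1.90 (SE 0.13, adjusted p = 0.0485) in etiolated leaves and by 1.24 (SE 0.13, adjusted p = 0.072) in light leaves. Its level was 11.64 and 11.28 with nitrate and 13.50 and 13.22 with water in etiolated leaves, and 12.32 and 12.36 with nitrate and 13.64 and 13.53 with water in light leaves. In both conditions the nitrate channels lay wholly below the water channels, and between conditions the water level differed by -0.22 (SE 0.17), which was not called. Over the alternatives tried its etiolated value ran between -1.95 and -1.83 and kept its call at the unadjusted p, while the adjusted p ran between 0.00106 and 0.491.

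AK058878, another cDNA described as a rice chitinase, turned its sign with the condition. Its nitrate response was -1.35 and -1.31 on the etiolated arrays, against 1.47 and 1.13 on the light arrays. The replicates of each condition lay close together and far from those of the other. It fell by 1.33 (SE 0.15, adjusted p = 0.0843) in etiolated leaves and rose by 1.30 (SE 0.15, adjusted p = 0.076) in light leaves. The contrast was -2.63 (SE 0.21, unadjusted p = 0.000162, adjusted p = 0.0992), the lowest of any defence probe, and ran between -2.80 and -2.45 over the alternatives, with an adjusted p between 0.0038 and 0.561. Its level was 10.05 and 10.33 with nitrate and 11.40 and 11.63 with water in etiolated leaves. In light leaves it was 11.92 and 11.79 with nitrate and 10.45 and 10.66 with water, so that the nitrate level of light leaves and the water level of etiolated leaves were the high ones.

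One more cDNA with the same description, AK101155, fell by 1.30 (SE 0.15, adjusted p = 0.0843) in etiolated leaves, with responses of -1.40 and -1.20, against -0.34 and -0.59 in light leaves. RCB4, a class III chitinase, fell by 1.23 (SE 0.15, adjusted p = 0.0914) in etiolated leaves, with -1.24 and -1.21, against -0.43 and -0.07 in light leaves. For neither was the contrast called. Across the 15 cDNAs that share the description of AK064281, the response ran between -1.90 and 0.68 in etiolated and between -1.24 and 1.30 in light leaves, so the 3 named ones do not speak for the rest.

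**Figure D2:**
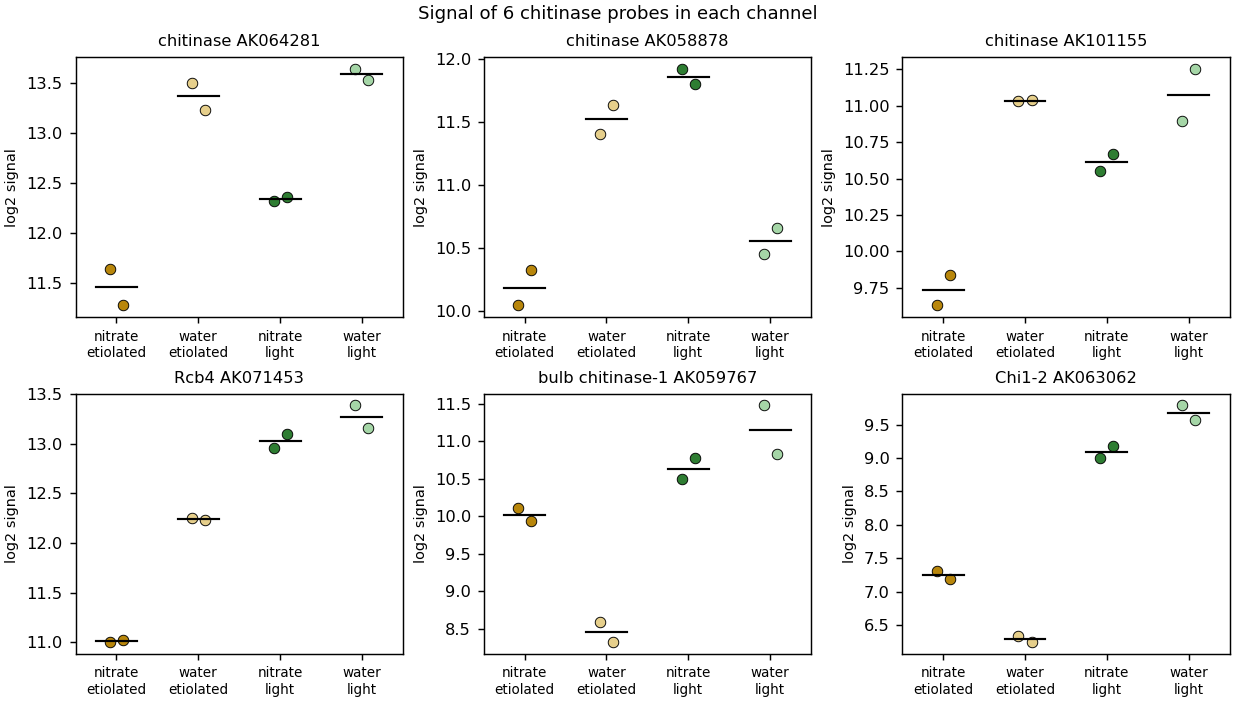
Log2 signal of 6 chitinase probes in the nitrate and water channels of etiolated and light leaves, each point 1 array and each bar the mean of 2. Each panel has its own vertical scale, which does not start at 0. AK064281 is lower with nitrate in both conditions, and AK058878 is lower with nitrate in etiolated and higher in light leaves.

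Other chitinases went the opposite way. The probe matched to the tulip bulb chitinase-1, AK059767, had responses of 1.52 and 1.62 on the etiolated arrays, against -0.98 and -0.06 on the light arrays. It rose by 1.57 (SE 0.26, adjusted p = 0.124) in etiolated leaves, and its contrast, 2.09 (SE 0.36, adjusted p = 0.195), was the highest of any defence probe. AK063062, matched to the parsley chitinase Chi1-2, had 0.97 and 0.94 in etiolated leaves, against -0.78 and -0.39 in light leaves. Neither response reached the fold threshold, but the contrast was 1.54 (SE 0.22, adjusted p = 0.176). Both of these probes were also much lower in water-treated etiolated leaves. AK059767 had a water level of 8.58 and 8.32 in etiolated leaves, against 11.48 and 10.83 in light leaves, a difference of -2.70 (SE 0.24, adjusted p = 0.000351). AK063062 had 6.34 and 6.25, against 9.78 and 9.57, and its -3.38 (SE 0.13, adjusted p = 2.93e-05) was the lowest of any defence probe. The nitrate response and this difference share the water channels of the etiolated arrays and are not independent. A second cDNA with the tulip match, AK060033, named outside the rule, was called in no comparison. Its mean response was -0.33 in etiolated and -0.37 in light leaves, and its water difference was -0.88.

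The class III chitinase homologues of the OsChib3H group are 8 probes, and relatives of this class in cereals include proteins that inhibit xylanase. In water-treated leaves 4 of them (50%) were higher in etiolated than in light leaves and none was lower, against 14.5% each way for all probes. The group was formed by the wording of the description and is not one of the planned families. It leaves out the class III chitinases RCB4, which was lower at -1.03, and OsChib3a (AK100973, outside the naming rule), at 0.16 and not called. Within it AK068694, AK064356 and AK070768 were below background with water in both conditions. OsChib3H-a (AK063939) had a water level of 8.10 and 7.85 in etiolated leaves, against 3.27 and 4.28 in light leaves, where it was not well above background. The dim signal is replaced by the lowest signal well above background on its array, and this made it at least 7.55-fold higher in etiolated leaves (fitted difference adjusted p = 0.000286). Such a bound, here and below, holds for the processed signals only. Over the alternatives the fitted log2 difference of AK063939 ran down to 1.34, which is less than the bound. OsChib3H-d (AK073267) had 13.81 and 13.77, against 10.90 and 11.17, and was higher by 2.76 (SE 0.13, adjusted p = 4.13e-05). The other two, OsChib3H-c (AK103295) at 2.29 and a probe of OsChib3H-b (AK067962) at 1.55, are named outside the naming rule, after their values were seen, because they complete the count. A second OsChib3H-b probe, AK070768, stood apart: below background with water in both conditions, it was at least 1.64-fold higher with nitrate in etiolated leaves (responses 1.89 and 0.83, adjusted p = 0.189), a call lost without etiolated replicate 1. OsChib3H-d fell by 1.07 (SE 0.15, adjusted p = 0.09) with nitrate in light leaves, with -0.92 and -1.23, against -0.25 and -0.31 in etiolated leaves, and the call was lost without light replicate 2, at -0.92. At the median the 8 probes had a response of -0.02 in etiolated and -0.5 in light leaves.

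Outside that group, chitinase IIb (AK071013) was higher in water-treated etiolated leaves, at 12.35 and 12.44, against 9.91 and 9.93 in light leaves, a difference of 2.48 (SE 0.13, adjusted p = 6.68e-05). RCB4 was lower, at 12.25 and 12.24, against 13.38 and 13.16, a difference of -1.03 (SE 0.12, adjusted p = 0.00102) that lost its call without light replicate 1, at -0.92. Of the 42 chitinases, 5 were higher and 4 lower in water-treated etiolated leaves, 11.9% and 9.52%, against 14.5% each way for all probes. The brightest chitinase probe, AK065866, was called in no comparison: its nitrate response was 0.05 and -0.06 in etiolated leaves, against -0.17 and 0.09 in light leaves, with 1 saturated channel.

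Of 26 glucanases, 1 (3.85%) rose with nitrate in etiolated leaves and none fell, against 1.81% and 1.72% of all probes. None was called in light leaves, where 2.28% of all probes rose and 1.46% fell. The contrast called none either, against 2.98% and 3.54% of all probes. The one that rose, AK110902, matched to the Arabidopsis glucanase At2g27500, had 1.28 and 0.83 on the etiolated arrays, against -0.09 and 0.36 on the light arrays. It rose by 1.05 (SE 0.20, adjusted p = 0.149), and without etiolated replicate 1 its value was 0.83. In water-treated leaves 3 glucanases were higher and 2 lower in etiolated leaves, 11.5% and 7.69%, against 14.5% each way for all probes. AK110902 was the highest of all defence probes there, with a water level of 11.57 and 11.46 in etiolated leaves, against 7.34 and 6.92 in light leaves, which is 20.9-fold (log2 4.39, SE 0.23, adjusted p = 5.61e-05). A second cDNA with that description, AK073663, had 12.10 and 12.11, against 9.85 and 9.52, and was 5.34-fold higher (log2 2.42, SE 0.13, adjusted p = 6.8e-05). The 4 probes of this description ran between -0.17 and 4.39, so not all of them shared the difference. AK058891, matched to a sorghum glucanase, was not well above background in etiolated leaves (2.85 and 3.72) but was in light leaves (5.59 and 5.59), and was at least 1.2-fold lower in etiolated leaves. The brightest probe, AK061572, matched to At5g42720, had responses of 0.15 and -0.47 in etiolated leaves, against 1.04 and 0.23 in light leaves, and was not called.

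None of the 11 thaumatin-like probes was called for nitrate in either condition. Of all probes 1.81% rose and 1.72% fell in etiolated leaves, and 2.28% and 1.46% in light leaves. The contrast called 1 of 11 higher and 1 lower in etiolated leaves, 9.09% each way, against 2.98% and 3.54% of all probes. The lower one, AK072354, matched to the Arabidopsis thaumatin At4g38660, had -1.16 and -0.28 on the etiolated arrays, against 0.60 and 0.52 on the light arrays. Its contrast was -1.28 (SE 0.35, adjusted p = 0.249), and the call was lost without etiolated replicate 1 (-0.84), light replicate 1 (-1.24) or light replicate 2 (-1.32). In water-treated leaves 3 thaumatin probes were higher and 3 lower in etiolated leaves, 27.3% each way of only 11 probes, against 14.5% each way for all probes. AK072354 was among the lower ones at -1.11 (SE 0.44, adjusted p = 0.0863), a call lost without the same arrays, at -0.87, -1.09 and -1.13. The brightest, AK069182, described as a rice thaumatin-like protein, had 0.57 and 0.35 in etiolated leaves, against -0.06 and -0.21 in light leaves, and was not called.

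Of the 9 other PR proteins, 1 (11.1%) fell with nitrate in etiolated leaves, where 1.72% of all probes fell. None was called in light leaves or in the contrast. The one that fell, AK063248, matched to barley PR-1a, was below background in both channels, so it has no fold; it is named outside the rule. The brightest, AK101969, described as a rice PR protein, was saturated in 4 channels, and its responses of -0.24 and 0.35 in etiolated leaves, against -0.08 and 0.59 in light leaves, straddle 0. In water-treated leaves 1 of the 9 (11.1%) was lower and none higher in etiolated leaves, against 14.5% each way for all probes. It was AK060057, described as rice PR protein 1 and also outside the rule, at -1.31.

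Of the 17 germin-like probes 3 (17.6%) fell with nitrate in etiolated leaves and none rose, against 1.72% and 1.81% of all probes. None was called in light leaves, where 2.28% of all probes rose and 1.46% fell. RGLP1 (AK058764), the precursor of germin-like protein 1, had responses of -3.02 and -1.84 on the etiolated arrays, against -0.45 and 0.47 on the light arrays. Both etiolated arrays lay below both light arrays, though the pair differed by over 1 log2 unit. Its level was 6.63 and 7.24 with nitrate and 9.65 and 9.08 with water in etiolated leaves, whereas in light leaves it was 9.57 and 10.15 with nitrate and 10.01 and 9.68 with water. It fell by 2.43 (SE 0.38, adjusted p = 0.118) in etiolated leaves, with 0.01 (SE 0.38) in light leaves and a contrast of -2.44 (SE 0.54, adjusted p = 0.223). Without etiolated replicate 1 its fall was -1.84, less than the -1.95 of the chitinase AK064281, and with normexp it was -1.55, against -1.83. AK063013, matched to the wheat germin-like protein 2b, had -1.02 and -1.20, against 0.54 and 0.48. It fell by 1.11 (SE 0.13, adjusted p = 0.0867) in etiolated leaves, with a contrast of -1.62 (SE 0.19, adjusted p = 0.143). The other that fell was a probe of GER6 (AK061029) at -1.05, named outside the rule.

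GER2 (AK059812) went the other way, with 0.80 and 1.14 on the etiolated arrays, against -0.81 and -1.0 on the light arrays. Neither mean passed the fold threshold, and the contrast was 1.88 (SE 0.22, adjusted p = 0.143). The contrast called 3 germin-like probes higher and 2 lower in etiolated leaves, 17.6% and 11.8%, against 2.98% and 3.54% of all probes. In water-treated leaves 3 were higher and 3 lower in etiolated leaves, 17.6% each way, against 14.5% each way for all probes. AK063013 had 8.42 and 8.46, against 6.04 and 6.07, and was 5.22-fold higher (log2 2.39, SE 0.10, adjusted p = 3.68e-05). It also fell with nitrate in etiolated leaves, but that response shares their water channels, so the 2 values are not independent. GER2 (AK059812) had 6.43 and 6.36, against 7.73 and 7.44, a difference of -1.19 (SE 0.20, adjusted p = 0.00475). A second cDNA with the GER2 description, AK059781, named outside the rule, was higher there, at 1.09 (SE 0.16, adjusted p = 0.00249). Its contrast, 1.23 (SE 0.27, adjusted p = 0.223), had the same sign as that of AK059812, so the 2 probes differ in the water comparison. GER5, the brightest, had 15.04 and 14.77, against 15.86 and 16.00, a difference of -1.03 (SE 0.21, adjusted p = 0.00939) with 1 saturated channel. The GER5 call was lost without etiolated replicate 2, at -0.90, and without light replicate 2, at -0.96.

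**Figure D3:**
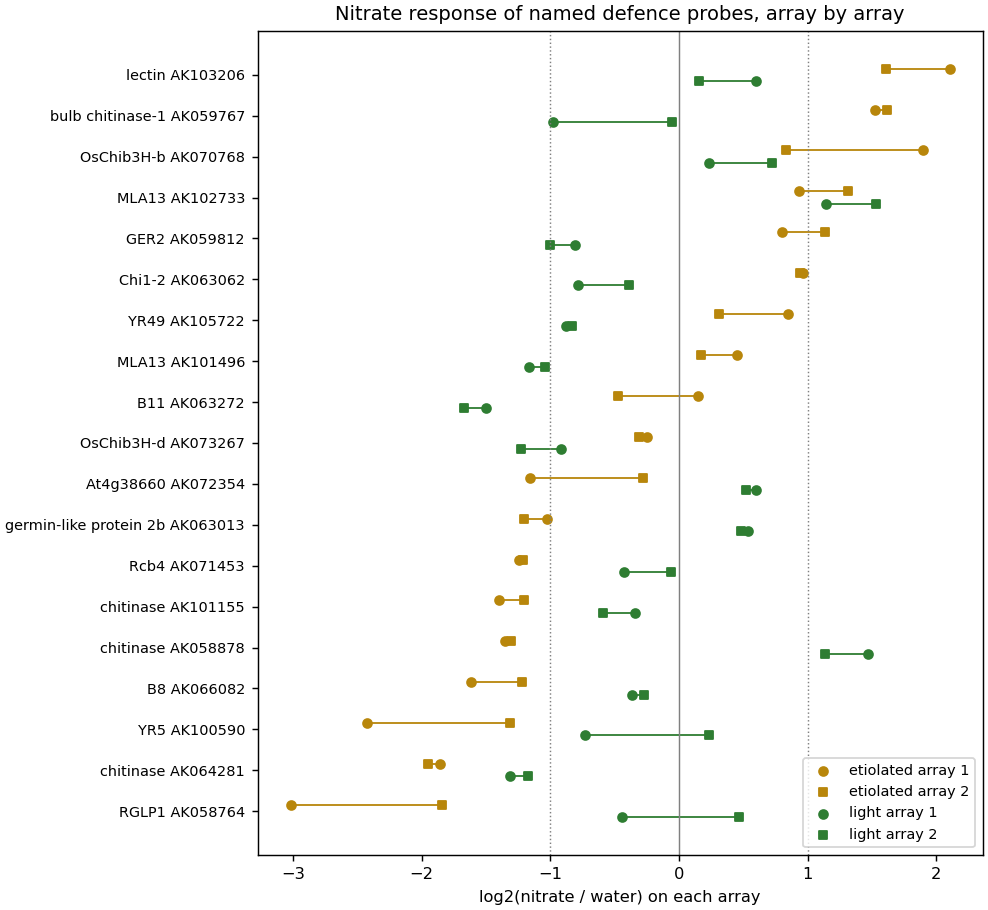
Nitrate response, log2(nitrate/water), on each array for the 19 defence probes named for a nitrate response or for the contrast. Etiolated arrays stand above light arrays, circles are replicate 1 with nitrate in Cy5, squares are replicate 2 with nitrate in Cy3, and dotted lines mark a log2 value of 1 either way. The chitinase AK058878 lies between -1.35 and -1.31 in etiolated and between 1.13 and 1.47 in light leaves.

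Among the 9 lectins, 2 (22.2%) rose with nitrate in etiolated leaves and 1 (11.1%) in light leaves, and none fell. Of all probes 1.81% rose in etiolated and 2.28% in light leaves. The rice lectin AK103206 had responses of 2.10 and 1.61 on the etiolated arrays, against 0.60 and 0.16 on the light arrays, where both channels were below background. Its water channel was below background in etiolated leaves too, which made it at least 2.03-fold higher with nitrate (adjusted p = 0.0841). The other called lectin, AK110961, was below background in both channels in either condition and has no fold. In water-treated leaves the lectins held members at both ends. The lectin-like protein AK062520 had 11.28 and 11.19 in etiolated leaves, against 8.31 and 7.65 in light leaves, and was 9.56-fold higher (log2 3.26, SE 0.23, adjusted p = 0.000153). AK099576, matched to a putative lectin of barley described as induced by high light, had 7.53 and 7.31, against 10.69 and 10.45, and was lower by 8.87-fold (log2 -3.15, SE 0.18, adjusted p = 7.81e-05). A second cDNA with the same barley match, AK111282, stood at -0.68 and was not called. The brightest lectin, AK062126, had 0.84 and -0.25 in etiolated leaves, against 0.43 and 0.95 in light leaves, and was called in no comparison.

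The NBS-LRR receptors were the largest family and the least often detected. Of 83 probes, 1 rose and 4 fell with nitrate in etiolated leaves, 1.2% and 4.82%, against 1.81% and 1.72% of all probes. In light leaves 3 rose and 3 fell, 3.61% each way, against 2.28% and 1.46% of all probes. AK102733, matched to barley MLA13, a powdery mildew receptor, had 0.93 and 1.31 on the etiolated arrays, against 1.14 and 1.53 on the light arrays. It rose by 1.12 (SE 0.18, adjusted p = 0.121) in etiolated and by 1.34 (SE 0.18, adjusted p = 0.09) in light leaves, with a contrast of -0.22 (SE 0.26) that was not called. The etiolated call was lost without etiolated replicate 2, at 0.93. Another MLA13 match, AK101496, had 0.45 and 0.17 in etiolated leaves, against -1.16 and -1.04 in light leaves, where nitrate was below background, making it at least 1.64-fold lower (adjusted p = 0.0867). Its contrast was 1.42 (SE 0.21, adjusted p = 0.176).

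Most other NBS-LRR responses belonged to 1 condition by their call, though the contrast did not always separate them. In etiolated leaves AK066082, matched to the bean protein B8, had -1.61 and -1.22, against -0.36 and -0.27 in light leaves, and fell by 1.41 (SE 0.16, adjusted p = 0.0843). Its contrast of -1.10 lost its call without etiolated replicate 1, at -0.90. A YR5 match, AK100590, had -2.42 and -1.31, against -0.73 and 0.24, and with nitrate below background was at least 2.39-fold lower (adjusted p = 0.162). Without etiolated replicate 1 that call was lost, at -1.31, as was its contrast of -1.62 (-1.07 without it, and -1.14 without light replicate 2). In light leaves AK063272, matched to bean B11, fell by 1.58 (SE 0.20, adjusted p = 0.0854), with -1.50 and -1.67, against 0.15 and -0.48 in etiolated leaves. The YR49 match AK105722 was called by the contrast alone, at 1.44 (SE 0.26, adjusted p = 0.196), with 0.85 and 0.31 in etiolated leaves, against -0.88 and -0.83 in light leaves. Across the 34 YR48 probes the median was -0.03 in etiolated and -0.01 in light leaves, with 1 call down in etiolated leaves and 1 each way in light leaves. The brightest NBS-LRR probe, a YR14 match (AK065947), had -0.48 and 0.07, against -0.30 and 0.46, and was not called.

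In water-treated leaves 3 NBS-LRR probes were higher and 13 lower in etiolated leaves, 3.61% and 15.7% of the family, against 14.5% each way for all probes, while the family's median stood at 0.01. Among the lower ones, AK099477, AK070769, AK101439 and AK102672 were below background with water in both conditions. AK106251 and AK067669 were below background with water in etiolated leaves only. All of these are named outside the rule. The MLA13 match AK102237 had 5.54 and 6.41 in etiolated leaves, against 8.55 and 8.47 in light leaves, and was lower by 5.79-fold (log2 -2.53, SE 0.38, adjusted p = 0.00276). AK060643, matched to bean J78, had 6.18 and 6.25, against 7.79 and 7.93, and was lower by 3.12-fold (log2 -1.64, SE 0.11, adjusted p = 0.000114). The YR48 match AK069829 had 3.53 and 3.44, against 6.22 and 5.77, and the YR5 match AK069428 had 4.82 and 4.82, against 6.58 and 6.44. Both were below background in etiolated leaves, and were at least 1.58-fold and at least 2.26-fold lower (adjusted p = 0.000183 and 0.0347), the call of AK069428 being lost without light replicate 1 (-1.62) or light replicate 2 (-1.76). A second YR5 match, AK065659, was 1 of the 3 that were higher. It had 6.54 and 6.51 in etiolated leaves, against 3.59 and 3.83 in light leaves, where it was below background, and was at least 2.76-fold higher (adjusted p = 0.000893).

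**Figure D4:**
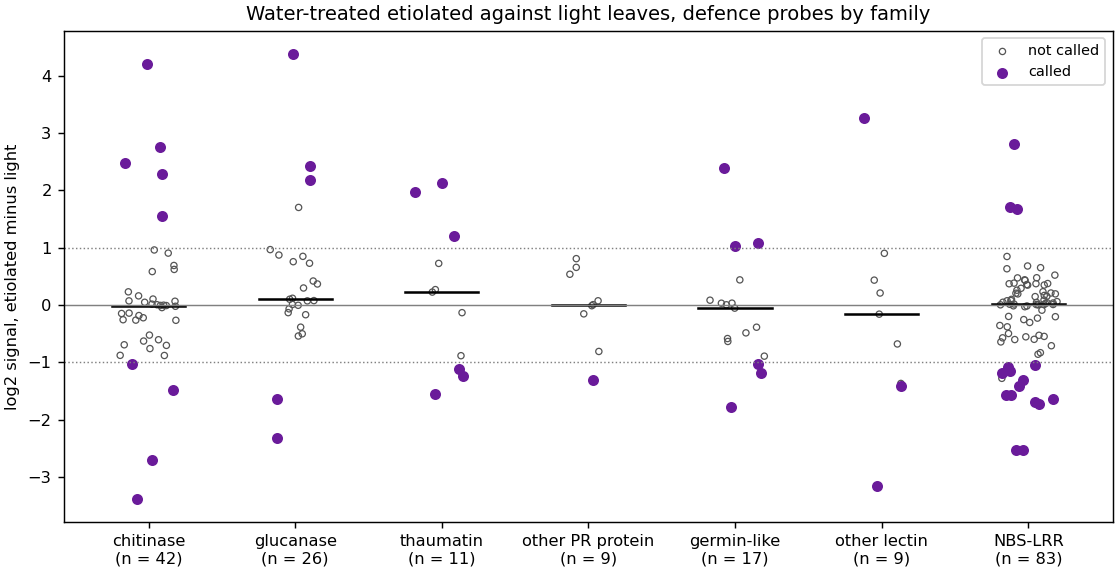
Log2 signal in water-treated leaves, etiolated minus light, for the 197 defence probes by family. Filled points were called, black bars are family medians and dotted lines mark a log2 value of 1 either way. Family medians lie near 0, while single members reach 4.39 and -3.38. The called NBS-LRR probes are mostly below 0, several of them on probes below background in 1 or both conditions.

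**Figure D5:**
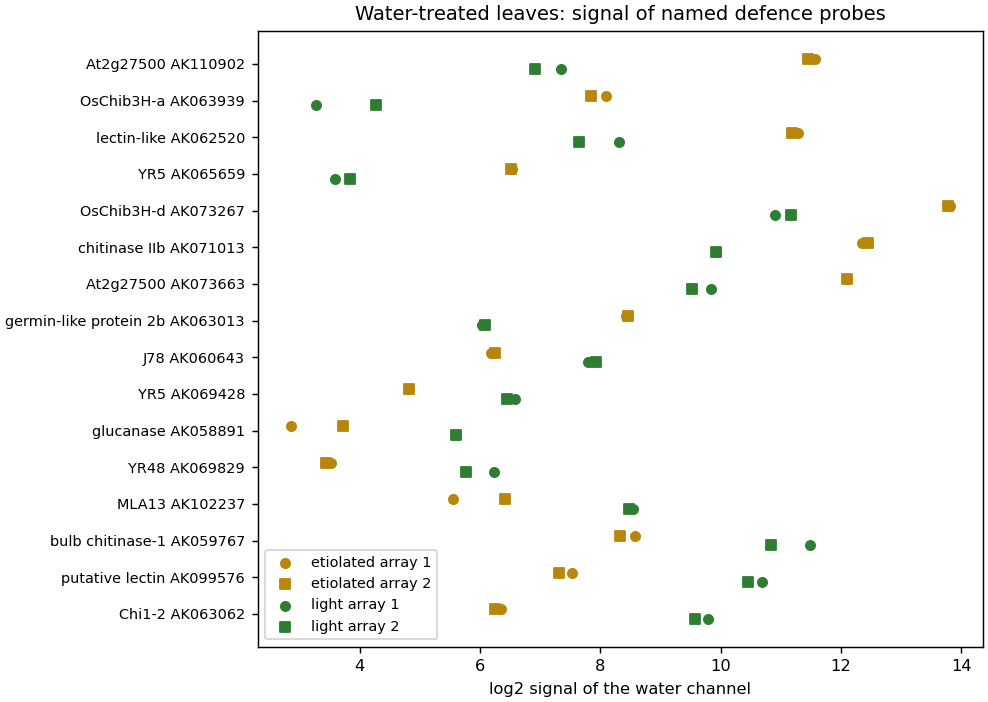
Log2 signal of the water channel on each array for the 16 defence probes named for a difference between water-treated etiolated and light leaves. Etiolated arrays stand above light arrays, and circles and squares are replicates 1 and 2. In each of the 16 rows the etiolated points do not overlap the light points. The probes were chosen by this same difference, so the separation is no further evidence of it.

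Other genes of defence were counted from a list of 103 probes for defensins, thionins, proteinase and xylanase inhibitors, dirigent proteins, further resistance proteins and signalling proteins. With nitrate none rose and 3 fell in etiolated leaves, and 2 rose and 3 fell in light leaves, with medians of -0.03 and -0.01. Those that fell were 2.91% of the list in each condition, against 1.72% of all probes in etiolated and 1.46% in light leaves. Those that rose in light leaves were 1.94%, against 2.28% of all probes, while 1.81% of all probes rose in etiolated leaves. The contrast called 3 each way, 2.91%, against 2.98% and 3.54% of all probes. In water-treated leaves 14 were higher and 16 lower in etiolated leaves, 13.6% and 15.5% of them, against 14.5% each way for all probes, with a median of 0.01. Over all comparisons, 132 of the 197 defence probes were called in none of the 4. This was not counted over all probes, so it is not read as a trait of the defence probes.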

How the data were processed

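Leaf RNA was hybridised to 4 2-colour Agilent rice arrays on 1 slide, scanned together, so no slide or scan block was needed. The authors deposited scanner output from Agilent Feature Extraction (9.5.3.1 in the file headers, another version in the methods), which had subtracted background and balanced the dyes: a red and a green intensity for each spot, and their log10 ratio. They also deposited normalized ratio values (Lowess, GeneSpring), used as an alternative, which correlated with the scanner ratios at 0.981 to 0.994 and lacked 144 to 3004 probes per array.

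From the processed signals log2 ratios were normalized by loess (span 0.3, 4 iterations), turned to nitrate over water and averaged over 2 spots per probe, without control spots (1417 of 44407) and outlier spots (7 to 60 per array). Saturated spots were kept. Ratios were fitted with limma 3.58.1 in R 4.3.3 (lmFit, eBayes) over all 21495 probes, with a coefficient for each condition and their contrast. Water channels were compared in a separate-channel analysis (Aquantile, statmod 1.5.0) over 21493 probes. The fold and p thresholds are those the study's text gives, and its methods name no test for the arrays. The functions were checked on simulated data. A probe not well above background on both arrays of a condition has only a bound: the bright group's mean is set against the higher of the lowest signal well above background on each array and the probe's own. The bound is no minimum under other processing. Over the alternatives the fitted water difference of AK069428 came as near 0 as -0.30, and the etiolated response of AK103206 ran down to 0.43, both less than their bounds.

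Members and lists were chosen with earlier results of these data known. The list of other defence genes was trimmed by its text, before its values were seen, of descriptions that only contain a listed word. Genes were named by a rule: called members well above background in a channel, at most 12 per condition for nitrate, 5 each way for the contrast and 8 each way for water, and the brightest of each family. Members said to be outside this rule were chosen after their values were seen. Green leaf and seed storage probes served as markers. Probe sequences and gene positions are not used here. The number of arrays limits the precision. Plots were drawn with matplotlib 3.10.9.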

Additional observations from a re-analysis of the deposited data

Results flagged for a closer look

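The nitrate response differed between conditions, by the contrast etiolated minus light at an unadjusted p, for 14 of the defence probes named. None passed after adjustment over all probes, 8 did with dim probes left out, and 10 lost their call with the normexp background correction. The cause was not tested. Among chitinases the contrast was -2.63 for AK058878, whose response was below 0 on both etiolated arrays and above 0 on both light arrays, 2.09 for the bulb chitinase-1 match AK059767 and 1.54 for the Chi1-2 match AK063062. Among germin-like probes it was -2.44 for RGLP1, -1.62 for AK063013 and 1.88 for GER2 (AK059812). It was -1.28 for the thaumatin AK072354 and 1.48 for the lectin AK103206, which was below background in both light channels and in the water channel of etiolated leaves (0.30 with normexp). Among NBS-LRR probes it was -1.68 for the YR5 match AK065659, whose light channels were both below background (-0.22 with normexp), -1.62 for the YR5 match AK100590 (-0.23 with normexp), -1.10 for the B8 match AK066082 (-0.53), 1.44 for the YR49 match AK105722, 1.42 for the MLA13 match AK101496 (0.32) and 1.42 for the B11 match AK063272.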

How the results depend on the processing

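With 2 arrays per condition and dim probes in many families, the counts of calls moved, and so did the values of dim probes. Over the alternatives the light response of AK065659 ran between 0.09 and 1.33, and the etiolated response of AK100590 between -2.42 and -0.39. The etiolated response of the chitinase AK064281, well above background in all channels, ran between -1.95 and -1.83. Over 783 values of 54 called pairs of a named probe and a comparison, each kept its direction, 626 kept their call and 157 lost it. With the normexp background correction, which compresses dim signals, 7 etiolated, 2 light, 6 contrast and 24 water members were called, in place of 18, 10, 23 and 46, and 28 of 54 named calls were lost. With dim probes left out, fewer probes being tested, 6 light and 14 contrast members were called, and without moderation 13 in the contrast. With the adjusted p 1 etiolated, 0 light and 0 contrast members were called. In settings chosen after seeing the data, the adjusted p called 11, 6 and 8 with dim probes left out, 12, 6 and 1 with the authors' normalized ratios, 7, 4 and 1 with median centring, and 7, 2 and 2 with normexp. Of these settings, shares of all probes are given above only for dim probes left out, so the other counts are not set against all probes. Leaving out each array in turn gave 15 to 32 etiolated, 10 to 18 light, 16 to 37 contrast and 42 to 47 water members, the lone array left being assumed to vary like the other condition. The counts stayed within 1.5 times under median centring, Feature Extraction's own ratio, the authors' normalized ratios, outlier spots kept and each condition fitted alone, and for water also under quantile normalization, dim probes left out and the water channels alone. The labels give no replicate numbers, so a replicate block, which here is also the dye of nitrate, pairs nothing; with it 19 etiolated, 10 light and 23 contrast members were called.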
